A study of Mus musculus with 12 samples.

Results

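Liver RNA from 4 samples on a steatohepatitis diet was compared with 4 control samples, taken after 2 or 6 weeks on the diets. The comparison covers the 8 arrays of weeks 2 and 6 out of 12 in the series, and the 4 arrays of week 1 were kept out of the fit. The question was which small differences between the diets recur at both weeks but are missed when a single week is compared, 2 arrays against 2.

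All samples are liver RNA of male C57BL/6NJcl mice, hybridised to one-colour Agilent arrays after labelling of 150 ng with Cy3. CDAHFD is a choline-deficient, L-amino acid-defined diet with 60 kcal% fat and 0.1% methionine, used to induce steatohepatitis, and control mice received the CE-2 chow. The labels name no other control diet, so the comparison is of the diets as a whole. Mice were 8 weeks old at week 2 and 12 weeks old at week 6, and those of week 1 were 7 weeks old. Each of the 4 groups (control and CDAHFD at week 2 or 6) held 2 arrays. Whether the 2 replicates of a group were different animals is not stated in the labels. The p-values therefore measure only how far these arrays spread, and part of that may be technical.

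Choline is needed to build phosphatidylcholine, with which the liver exports fat, and its lack together with low methionine leads to fat storage, hepatocyte injury, inflammation and fibrosis. In such a liver hepatocytes share the tissue with incoming macrophages and with activated stellate cells, which deposit collagen. Hepatocytes are rich in mitochondria and peroxisomes and make most plasma proteins, while their proteasome, endoplasmic reticulum quality control and lysosomes handle protein turnover.

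Hepatocyte, macrophage and stellate cell markers were read first, to check the labelled tissue and to place the small changes. All 23 hepatocyte markers were above background on every array, with a mean level of 4.91 to 5.25 on control arrays and 4.43 to 4.61 on CDAHFD arrays (log2 of the signal relative to the array's 75th percentile). The 21 macrophage and monocyte markers had a mean level of -2.67 to -1.98 on control arrays and 0.13 to 0.69 on CDAHFD arrays, and the 20 stellate cell and myofibroblast markers -2.61 to -2.43 against -0.85 to -0.52. In bulk liver, fewer cells of a type and less RNA per cell cannot be told apart, and the part of cell mixture in the small changes below was not tested.

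Weeks 2 and 6 lay on separate slides, so the week term in the model is also the slide. On both slides the control arrays sat in slide column 3 and the CDAHFD arrays in column 4, so diet and slide column cannot be told apart at these weeks. At week 1 the columns were 1 for control and 2 for CDAHFD. Before scaling, the 75th percentile of the log2 signal over all probes was 6.54 to 7.07 on control arrays and 7.48 to 7.79 on CDAHFD arrays. Along the first principal component, with 80.6% of the variance, the 4 CDAHFD arrays lay between 51.62 and 69.08 and the 4 control arrays between -66.25 and -55.53. Between the replicates of a group the SD was 0.28 to 0.48 log2.

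Differences below are log2, CDAHFD minus control, pooled over both weeks. The median gene's difference (0.04) was subtracted from each printed value. Each value carries limma's standard error and a Benjamini-Hochberg adjusted p over all genes tested. That adjusted p and the 2-fold limits below refer to the difference before the subtraction. Small differences were therefore called more readily on the higher side. A gene is called where that adjusted p is under 0.05. Of 13567 genes tested, 7413 were called (54.6%), 4207 of them higher (31%) and 3206 lower (23.6%). The filter kept a gene that was above background in any single group, so a gene absent in one diet entered only because it was present in the other, and 11727 of the genes were above background on all 8 arrays.

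The largest differences were these. Gpnmb, a glycoprotein of lipid-laden macrophages, was at least 278-fold higher on CDAHFD and Vsig8, an immunoglobulin family gene, at least 86.1-fold higher. Timp1, a metalloproteinase inhibitor, was at least 36.2-fold higher. Gpnmb, Vsig8 and Timp1 were not well above background on any control array, so they entered only through the CDAHFD arrays. No p-value is printed for them, because it would rest on control signals not well above background. The others at the top were Ubd (7.01 ± 0.57), a ubiquitin-like modifier, Trem2 (6.88 ± 0.22), a lipid-sensing receptor of macrophages, and Adam8 (6.76 ± 0.17), a metalloproteinase. Hsd3b5 (-6.70 ± 1.33), a male-specific steroid dehydrogenase, Scd1 (-6.01 ± 0.68), the stearoyl-CoA desaturase, Elovl3 (-5.11 ± 0.31), a fatty acid elongase, and Slc13a2 (-4.86 ± 0.20), a dicarboxylate transporter, were among the 6 that fell most, with Dct (-4.65 ± 0.84), a melanin pathway enzyme, and the pseudogene Serpina4-ps1 (-5.42 ± 0.81). Hsd3b5 stood at 3.74 to 4.14 on the 4 control arrays, at -0.37 and 0.22 at week 2 of CDAHFD, and at -7.34 and -3.24 at week 6. It was above background on 3 of the 4 CDAHFD arrays, and Ubd and Adam8 on 3 of the 4 control arrays, so the size of these 3 differences rests in part on a signal not above background.

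Most called genes had small differences: 4724 of the 7413 (63.7%) changed by under 2-fold. The pooled and single-week shares of called genes differed most there. Genes were binned by the pooled difference itself, so the bin and the pooled call are not independent. Among the 3220 genes with a difference of 0.25 to 0.5 log2, 57.3% were called in the pooled fit, against 22.5% with the arrays of week 2 alone and 12.3% with those of week 6 alone. Among the 1965 genes between 0.5 and 0.75 the shares were 88.1%, 61.6% and 47.8%, and above a difference of 2 they were 99.7%, 98.8% and 98.1%. The median standard error was 0.13 in the pooled fit and 0.17 and 0.18 in the fits of weeks 2 and 6. Over all sizes, 5273 genes (38.9%) were called at week 2 alone and 4553 (33.6%) at week 6 alone, 3596 at both, and 1534 genes were called when pooled but at neither week. The reverse, called at a week but not when pooled, held for 351 genes.

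**Figure D1:**
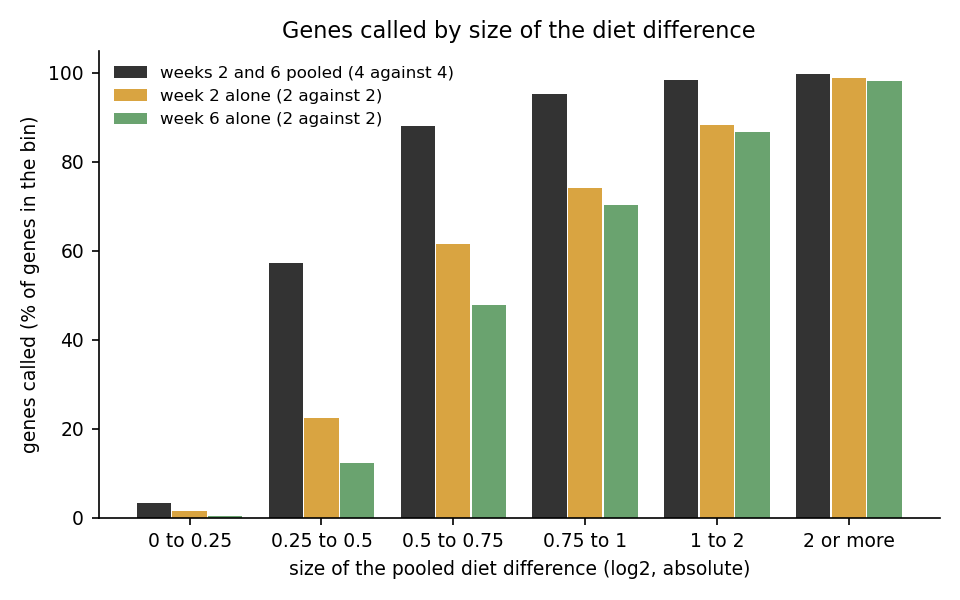
Share of genes called (%, y axis) by the absolute size of the pooled diet difference (log2, x axis), for the pooled fit of 4 against 4 arrays and for each week's 2 against 2 arrays. At 0.25 to 0.5 log2 the pooled fit called 57.3% of genes and weeks 2 and 6 alone 22.5% and 12.3%, while above 2 the 3 fits called 98.1% to 99.7%.

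Pooling treats the diet difference as the same at both weeks, and the change of the difference from week 2 to week 6 was tested directly. No gene was called for it by limma (0 of 13567, smallest adjusted p = 0.133), and 800 had an unadjusted p under 0.05. A fit over all 12 arrays also called 0 genes, with 804 at an unadjusted p under 0.05.

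The small consistent genes were taken as those called when pooled, under 2-fold, above background on all 8 arrays, called at neither week alone, and with both CDAHFD arrays beyond both control arrays on the same side at each week. There were 1248 of them (9.2% of genes tested), 513 higher and 735 lower. The middle of the higher genes lay at 0.32 (quartiles 0.26 and 0.40) and that of the lower genes at -0.38 (quartiles -0.47 and -0.32). Without control replicate 2 of week 2 the same rule gave 690 genes. Since these arrays define the group, its size and direction are a description and not a test. For comparison, 56.3% of all genes tested had both CDAHFD arrays beyond both control arrays on the same side at each week. At the edge of the threshold, the lysosomal membrane protein Lamp1 (adjusted p = 0.0498) was inside and the mitochondrial fusion protein Mfn2 (adjusted p = 0.0527) outside.

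Where the zero lies between the diets decides much of the higher group, and the lower group depends on the scaling too. The overall signal differed between the diets before scaling, and under 5 other scalings the median difference of all genes moved from 0.04 to between -0.18 and 0.08, and the share of calls that were higher from 56.8% to between 37.1% and 61.7%. With the array percentile taken over all probes, 18 of the 513 higher genes and all 735 lower genes were still called the same way, and with cyclic loess 422 and 464. Called the same way under every one of the 5 other scalings were 460 genes, of which 459 were lower and 1, the helicase Rad54l2, was higher. Most of these scalings put the median difference below that of the scaling used, which favours lower calls. When the median difference was set to 0 under each of 6 scalings, an alternative chosen after seeing the data, 137 higher and 284 lower genes were called the same way throughout. Recentred normexp kept the fewest lower genes, 289 of 735, and 353 of the 513 higher genes.

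**Figure D2:**
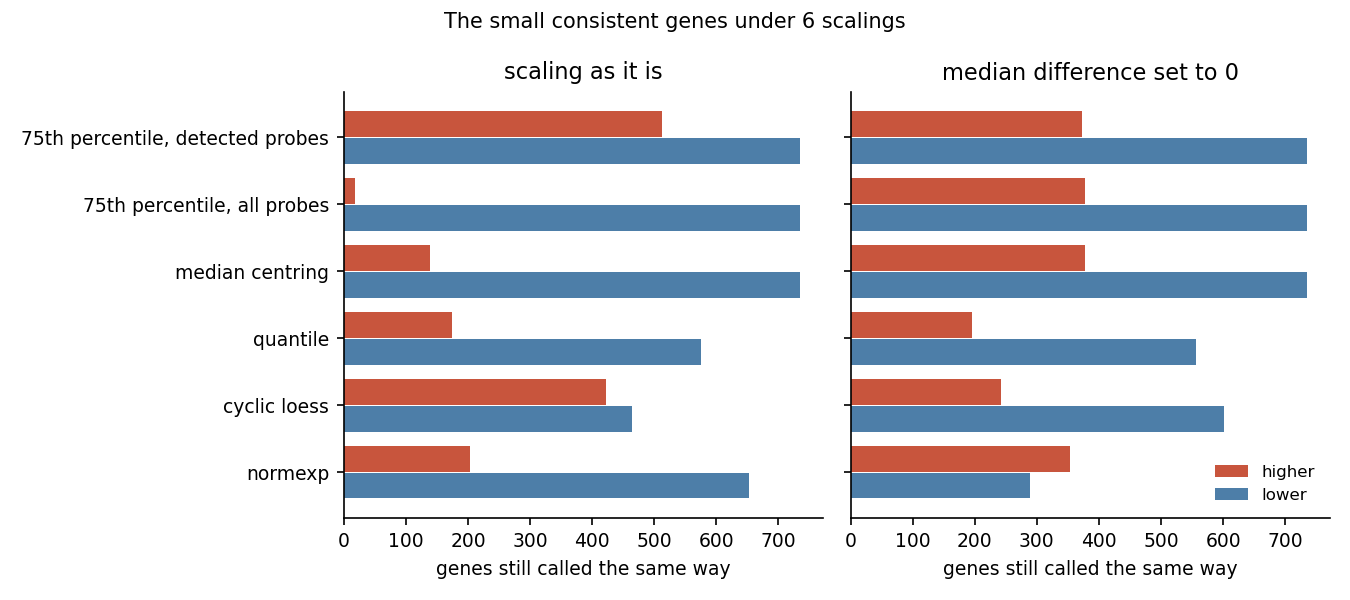
Number of the 1248 small consistent genes still called in the same direction (x axis) under each of 6 scalings (y axis), as the scaling leaves them (left) and with the median diet difference of all genes set to 0 (right). The higher genes drop from 513 to 18 when the percentile is taken over all probes and stand at 378 once that scaling is recentred, while the lower genes stand at 735 under both.

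The 1-week arrays, which took no part in choosing these genes, gave a separate reading of their direction. At week 1, 607 of 732 lower genes with a value were lower on CDAHFD (82.9%, median -0.32), against 56.3% of the 5571 genes above background on all 8 arrays that were not called and 53.1% of all 11712 with a value. Of the higher genes, 372 of 513 were higher at week 1 (72.5%, median 0.18), against 43.7% of the genes not called and 46.9% of all. Without control replicate 1 of week 1, on which a few genes named next read very low, the shares were 83.2% and 74.3%. The 1-week arrays lay on the slide that also held week 2, so they are separate samples but not a separate slide.

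The small consistent genes outside these shares (82.9% of the lower and 72.5% of the higher genes) did not keep their direction at week 1. Only those with the largest opposite values are named here. The largest opposite values among the lower genes, Faf2 (3.66), Dhx36 (3.65), Rnf215 (3.26), Ccz1 (2.45) and Rffl (2.08), came from control replicate 1 of week 1, where Faf2 read -8.06 against -0.16 on the other control array. Without that array Faf2 stood at -0.28, Rnf215 at -0.07, Ccz1 at -0.18 and Rffl at -0.32, and Dhx36 at 0.46. Among the higher genes, the lysosomal galactosidase Gla (0.25 ± 0.09 at weeks 2 and 6) stood at -1.12 at week 1, Medag, an adipogenesis factor, at -1.10, Ccsap, a centriole and spindle protein, at -0.86, the midnolin gene Midn at -0.83 and the myosin Myo1e at -0.71, and without control replicate 1 they stood at -0.95, -0.92, -1.27, -0.74 and -0.85.

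**Figure D3:**
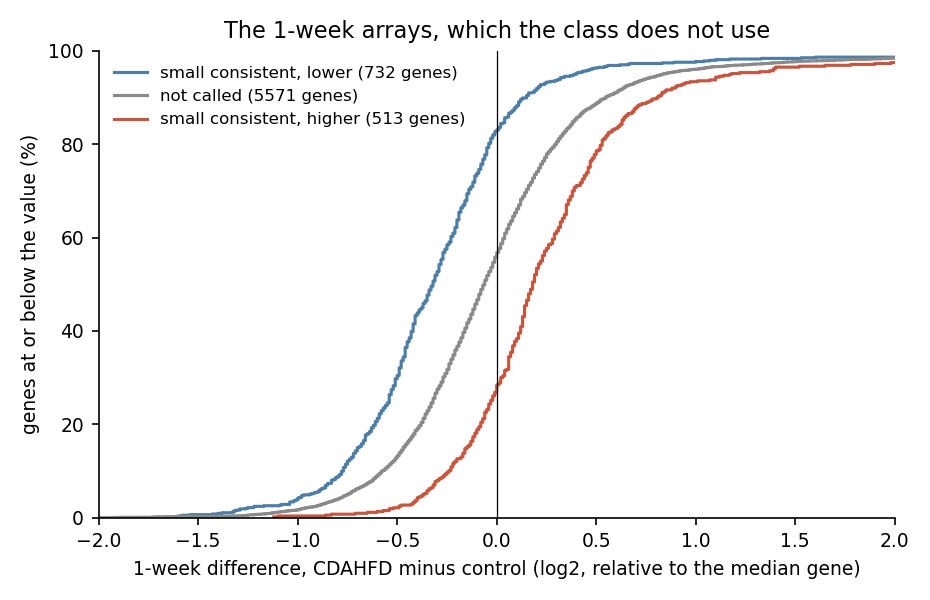
Cumulative share of genes (%, y axis) by their difference at week 1 (log2, CDAHFD minus control, relative to the median gene, x axis drawn from -2 to 2), for the small consistent genes that were lower, those that were higher, and the genes not called. At 0 the curve of the lower genes has reached 82.9%, while 72.5% of the higher genes lie above 0.

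Other probes of the same genes gave a reading by other oligonucleotides on the same arrays. Of 232 further probes of the lower genes, 192 (82.8%) also read lower, with a median of -0.27, and of 144 further probes of the higher genes, 97 (67.4%) read higher, with a median of 0.16. Of 1698 further probes of genes not called, 61.7% read lower and 38.3% higher. Apoo, a subunit of the mitochondrial contact site complex, read -0.38, -0.42 and -0.36 on its 3 probes, whereas Smg9, a factor of nonsense-mediated decay, read 0.34 on the probe used and -0.63 on another, and the cell death protein Bad 0.34 and -0.32. Among genes named below, 1 or more further probes of Wipi1 (-0.30), Csf1r (-0.36), Srsf1 (-0.33 and -0.05), Srsf6 (-0.08) and Snrnp200 (-0.13) also read opposite to the probe used.

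The direction of a difference also went with the level of a gene. In 5 bins of equal size from the dimmest to the brightest genes the median difference was 0.41, 0.15, 0.03, -0.06 and -0.25. The lower small consistent genes had a median level of -0.96 and the higher ones of -2.04, against -1.52 for all genes above background on all 8 arrays. The part of signal level in these differences was not tested.

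Among the small consistent genes that were lower under the scaling used and the 5 others as they stand, the 15 with the smallest adjusted p are described next. Of these, Gnpat, Idnk, Prrg2 and Mrpl18 lost the call under at least 1 scaling once its median difference was set to 0. Grtp1, a Rab GTPase-activating protein, read -0.31 and -0.27 on the control arrays of week 2 and -0.60 and -0.63 on CDAHFD, and -0.16 and -0.17 against -0.56 and -0.57 at week 6. That no CDAHFD array reached a control array at either week is required by the rule for the group. The 4 CDAHFD values of Grtp1 lay within 0.07 of each other (pooled difference -0.40 ± 0.07, adjusted p = 0.00204). Gnpat, the peroxisomal enzyme that starts ether lipid synthesis, read 1.07 to 1.19 on the 4 control arrays and 0.76 to 0.84 on the 4 CDAHFD arrays (-0.39 ± 0.07, adjusted p = 0.00259). Apoo read 0.20 to 0.34 on control arrays and -0.07 to -0.04 on CDAHFD arrays (-0.38 ± 0.07, adjusted p = 0.00297).

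Genes of the endoplasmic reticulum, of protein modification and of transcription were also among them. Jmjd8, a protein of the endoplasmic reticulum lumen, fell (-0.49 ± 0.09), as did Alg14 (-0.41 ± 0.08), which helps to build the sugar chain for N-glycosylation, Usp19 (-0.45 ± 0.09), a deubiquitinase anchored in the reticulum, and Tbc1d9b (-0.39 ± 0.07), a Rab GTPase-activating protein. Senp5 (-0.44 ± 0.08), a SUMO protease, Cdc37l1 (-0.40 ± 0.08), a co-chaperone of Hsp90, and Zfp24 (-0.40 ± 0.08), a zinc finger transcription factor, fell by a similar amount. Idnk (-0.39 ± 0.07), a gluconate kinase, Prrg2 (-0.39 ± 0.07), a membrane protein with a vitamin K-dependent domain, Mrpl18 (-0.38 ± 0.07), a mitochondrial ribosomal protein, and Znrd1as (-0.40 ± 0.08) belonged to the same set, and Slc5a10 (-0.66 ± 0.13), a sugar transporter, had the largest difference in it. Adjusted p ran from 0.00204 for Grtp1 to 0.00376 for Slc5a10 in the pooled fit. For these 15 genes it ran from 0.0517 to 0.0923 at week 2 alone, where the rule excludes values under 0.05.

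Most of the 15 genes were already lower at week 1, with Jmjd8 at -0.85, Slc5a10 at -0.75, Alg14 at -0.65 and Idnk at -0.59. Senp5 at 0.11, Cdc37l1 and Mrpl18 at -0.05, Znrd1as at -0.07 and Usp19 at -0.08 were near 0 at that time.

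The small consistent genes that were higher depend on the zero, as above, and those named next were higher under each of 6 scalings once the median difference was set to 0. Arf3, a GTPase of Golgi vesicle budding, read 0.82 to 0.93 on the 4 control arrays and 1.16 to 1.31 on the 4 CDAHFD arrays (0.30 ± 0.07, adjusted p = 0.00354). Trappc2l, a subunit of a vesicle tethering complex, read 0.20 and 0.39 against 0.67 and 0.63 at week 2 and 0.52 and 0.48 against 0.82 and 0.84 at week 6 (0.30 ± 0.07, adjusted p = 0.00344). For both genes the groups did not overlap within a week, as the rule for the group requires. Arf3 was not called when the percentile covered all probes (adjusted p = 0.19).

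Commd4, which takes part in endosomal recycling, stood 0.31 ± 0.08 higher, Rufy1, an endosomal Rab effector, 0.36 ± 0.09, Epn2, an endocytic adaptor, 0.36 ± 0.09, Exoc1, a subunit of the exocyst, 0.31 ± 0.08, Tbc1d23, a Golgi tethering adaptor, 0.38 ± 0.10, and Dctn4, a subunit of dynactin, 0.32 ± 0.08. Also higher were Mynn (0.55 ± 0.12), a zinc finger protein, Mapkapk2 (0.34 ± 0.08), a kinase downstream of p38 that stabilises cytokine transcripts, Erp29 (0.32 ± 0.08), a chaperone of the endoplasmic reticulum, Naa15 (0.34 ± 0.09), a subunit of an N-terminal acetyltransferase, and Rad54l2 (0.50 ± 0.12). Rad54l2 read -2.56 to -2.06 on control arrays and -2.01 to -1.49 on CDAHFD arrays. At week 1 most of these genes had no difference of that size. Mynn stood at 0.09, Commd4 at 0.11, Rufy1 at 0.02, Naa15 at 0.06, Erp29 at -0.04, Trappc2l at -0.16 and Mapkapk2 at -0.13. Rad54l2 (0.65), Tbc1d23 (1.22), Exoc1 (0.48) and Epn2 (0.32) were higher at that time. Bad, named above for its other probe, stood at -0.60.

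**Figure D4:**
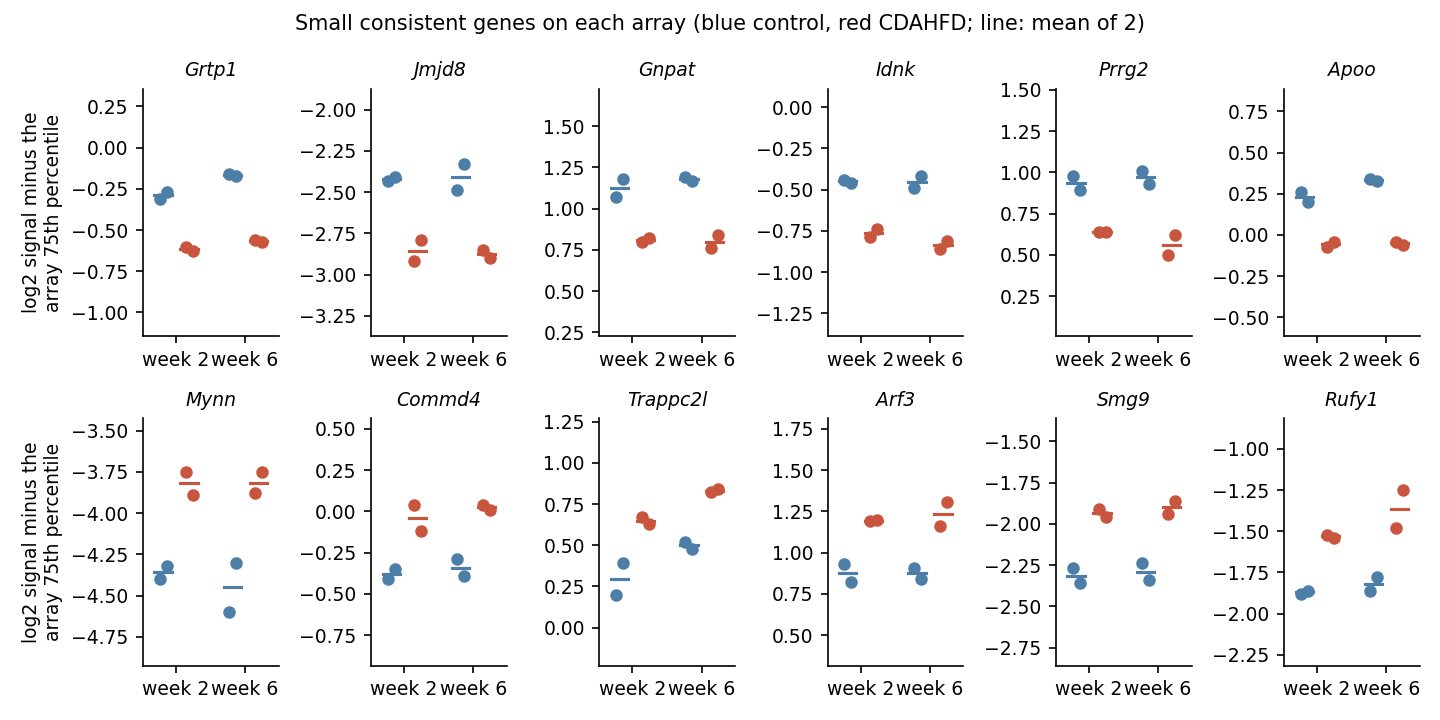
Level on each of the 8 arrays (log2 signal minus the array's 75th percentile, y axis, the same span in every panel) for 6 lower (top) and 6 higher (bottom) small consistent genes, with control in blue, CDAHFD in red and a line at the mean of 2 arrays. Within each week the red points lie below the blue ones in the top row and above them in the bottom row, as the rule for these genes requires.

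The proteasome, which degrades ubiquitin-tagged proteins, had 12 small consistent genes among 46 measured members, against 9.2% of all genes tested. By share, the tricarboxylic acid cycle had more (7 of 20, of which 2 higher and 5 lower). So did coenzyme Q synthesis (2 higher and 2 lower of 12). Slightly larger shares were also found in mitochondrial fusion, fission and contact sites (5 of 18), mitochondrial translation (7 of 26) and ribosome biogenesis (6 higher and 4 lower of 38). Of the 46 proteasome members, 33 were lower and 2 higher, with a median of -0.36. Of all genes tested 23.6% were lower and 31% higher, which is the background for every list below under the scaling used. It moves with the scaling. Under the 5 other scalings 2742 to 5361 of the 13567 genes were lower and 2732 to 4422 higher. List counts under those scalings are to be read beside these. At week 2 alone 15 of the 46 were called and at week 6 alone 13, against 38.9% and 33.6% of all genes tested. All 7 subunits of the 20S alpha ring fell, with differences from -0.53 to -0.31, and 6 of 7 of the beta ring. Of the 6 ATPases of the 19S cap 3 fell, and of its 15 other subunits 10.

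Pomp, the chaperone that assembles the 20S core, read 2.43 to 2.62 on the 4 control arrays and 2.08 to 2.28 on the 4 CDAHFD arrays (-0.37 ± 0.07, adjusted p = 0.0037). Psmd2, a scaffold of the 19S base, read 3.20 to 3.52 against 2.83 to 3.15 (-0.42 ± 0.10, adjusted p = 0.0126). Both are small consistent genes, so by the rule neither was called at a single week and the groups stood apart within each week. Psma1 (-0.32 ± 0.08), Psmb7 (-0.29 ± 0.07) and Psmd6 (-0.35 ± 0.08) were of the same size, and Psmb5, which carries the chymotrypsin-like site, was not called (-0.17 ± 0.10, adjusted p = 0.292). The exceptions were Psmd8, a 19S subunit that read 0.69 to 1.07 on control arrays and 1.29 to 1.58 on CDAHFD arrays (0.45 ± 0.10), and the assembly factor Psmg4 (0.39), which rose.

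The size of the proteasome difference rests on the scaling: the list's median lay between -0.36 and -0.19 and the number of its members called lower between 12 and 41 under the 5 other scalings. With the median difference set to 0 under each of 6 scalings, 11 of the 46 were lower throughout (23.9%), against 17.2% of all genes tested. Pomp stood at -0.12 with quantile normalization and at -0.21 with cyclic loess, and was not called there, and its other probe read 0.10. At week 1 the median of the list was -0.44.

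Promoters of 3 proteasome genes are shown here because they hold a motif that was searched in all promoters. The windows are 300 bases long and span a gene's start, taken from RefSeq in build GRCm38.p6, and capitals mark the ETS motif CCGGAAG or its reverse complement. Shown are the 3 called members with the smallest p among those that hold it: Psmd11 (chr11:80428365-80428664, plus strand), Psmd12 (chr11:107479278-107479577, plus strand) and Psmc1 (chr12:100109952-100110251, plus strand).
Psmd11: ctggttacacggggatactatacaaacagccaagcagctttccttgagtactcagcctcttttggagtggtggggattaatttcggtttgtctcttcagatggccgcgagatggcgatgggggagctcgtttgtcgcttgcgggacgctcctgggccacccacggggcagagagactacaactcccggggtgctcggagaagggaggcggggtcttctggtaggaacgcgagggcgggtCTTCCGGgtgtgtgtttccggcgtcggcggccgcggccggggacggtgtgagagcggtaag
Psmd12: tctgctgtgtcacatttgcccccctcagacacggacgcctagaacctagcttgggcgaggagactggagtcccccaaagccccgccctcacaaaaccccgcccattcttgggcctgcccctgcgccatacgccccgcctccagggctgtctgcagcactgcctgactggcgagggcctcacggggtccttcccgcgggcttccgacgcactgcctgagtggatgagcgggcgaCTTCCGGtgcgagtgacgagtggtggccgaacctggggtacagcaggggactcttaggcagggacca
Psmc1: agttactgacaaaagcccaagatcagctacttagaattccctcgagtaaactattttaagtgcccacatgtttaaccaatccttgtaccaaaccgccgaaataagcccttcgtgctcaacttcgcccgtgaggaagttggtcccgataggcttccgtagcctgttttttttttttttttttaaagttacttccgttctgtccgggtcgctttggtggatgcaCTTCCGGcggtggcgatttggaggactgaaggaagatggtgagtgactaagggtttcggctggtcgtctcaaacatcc
In all 3 the motif lies just before the start, at -11, -17 and -28. Psmd11 read 0.42 to 0.52 on control arrays and -0.27 to -0.11 on CDAHFD arrays (-0.70 ± 0.07, adjusted p = 6.8e-05), Psmd12 differed by -0.54 ± 0.07 (adjusted p = 0.00038) and Psmc1 by -0.51 ± 0.08 (adjusted p = 0.00121).

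Of 40 promoter windows of 38 proteasome genes, 42.5% held CCGGAAG on either strand, against 8.86% of all 32851 windows in the table and 15.8% of those of genes tested. Of the 16 proteasome genes with the motif 15 were lower, as were 33 of the 46 measured members of the list. The mitochondrial ribosome list held it in 34.7% of 75 windows. In the small consistent genes as a whole it stood in 18.8% of windows of the lower and 19.7% of the higher genes, near the 19.2% of genes not called. These lists were set beside the motif after their values were seen, and a match is a description of letters and not of binding.

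Mitochondrial lists differed in how many of their genes fell. Of 37 subunits of complex I, the entry point of the respiratory chain, 29 were lower (18 to 36 under the 5 other scalings) and 1, Ndufab1 (0.31), was higher. As many, 29, were called at week 2 alone, against 38.9% of all genes tested, and 1 was a small consistent gene. Of 39 subunits of complexes II to V 34 were lower and none higher, with all 4 of complex II, 8 of 9 of complex III, 9 of 10 of complex IV and 13 of 15 of the ATP synthase. Between 17 and 37 of the 39 were lower under the 5 other scalings. At week 2 alone 32 were called, against the same 38.9%, and 2 were small consistent genes. Of 31 mitochondrial import genes 7 were lower (22.6%), near the 23.6% of all genes tested, and 1 was higher (3.23% against 31%). Of 12 genes of coenzyme Q synthesis 4 were lower (33.3%) and 5 higher (41.7%). Atp5o, of the ATP synthase stalk, differed by -1.06 ± 0.14, Ndufv1, which binds NADH, by -0.79 ± 0.09, and Ndufb8, of the membrane arm of complex I, by -0.70 ± 0.08. Sdha, the flavin subunit of complex II, was seen when pooled only: it read 2.54 to 2.77 on control arrays and 2.22 to 2.36 on CDAHFD arrays (-0.38 ± 0.08, adjusted p = 0.00593). Ndufs1, which carries iron-sulphur clusters, was alike (-0.30 ± 0.08, adjusted p = 0.0218).

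Most calls among mitochondrial translation genes were small consistent ones. Of the list's 26 measured members 10 were lower and 2 higher, and 7 of the 10 were in the small consistent group. At week 2 alone 4 members were called and at week 6 alone 2, against 38.9% and 33.6% of all genes tested. With the median difference set to 0 under each of 6 scalings, 5 of the 26 were lower throughout (19.2%), near the 17.2% of all genes tested. Tufm, the elongation factor that brings tRNA to the mitochondrial ribosome, read 0.82 to 1.01 on control arrays and 0.54 to 0.74 on CDAHFD arrays (-0.30 ± 0.07, adjusted p = 0.0106). Gfm1, the translocating elongation factor, read 1.96 to 2.25 against 1.70 to 1.96 (-0.40 ± 0.09, adjusted p = 0.0087). Its groups were apart within each week, as the rule for small consistent genes requires. The synthetases Aars2 (-0.41 ± 0.13) and Yars2 (-0.32 ± 0.09), which charge tRNAs with alanine and tyrosine, fell by the same order, and Nars2 fell furthest (-1.81).

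The mitochondrial ribosome had 31 of 78 members lower, 2 higher and 45 not called, and under the 5 other scalings 24 to 64 were lower and 0 to 10 higher. Its first 3 members, Mrpl12 (-0.13 ± 0.09), Mrps12 (0.09 ± 0.10) and Mrpl3 (-0.13 ± 0.12), were not called. Of the small subunit 16 of 29 were lower and of the large subunit 15 of 49, a difference that was not tested. Mrpl34 (-0.44 ± 0.09), Mrps34 (-0.49 ± 0.11) and Mrps24 (-0.30 ± 0.07) were in the small consistent group with Mrpl18.

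Of 18 genes of mitochondrial fusion, fission and contact sites, 9 were lower and 1, the contact site protein Chchd6 (0.66), was higher, and 5 of the 9 were small consistent genes. Opa1, which fuses the inner membrane, read 1.39 to 1.49 on control arrays and 0.44 to 0.67 on CDAHFD arrays (-0.90 ± 0.08, adjusted p = 1.5e-05). The fission GTPase Dnm1l (-0.36 ± 0.09, adjusted p = 0.0159) and its receptor Mief1 (-0.41 ± 0.09, adjusted p = 0.00644) were called when pooled only, as was the outer membrane channel Vdac1 (-0.37 ± 0.08). The outer membrane fusion protein Mfn2 stood at -0.29 ± 0.09. Under the 5 other scalings the median of this list lay between -0.32 and -0.16 and that of mitochondrial translation between -0.26 and -0.13.

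Peroxisome assembly genes were lower in 10 of 19 cases (52.6%, against 23.6% of all genes tested) and higher in none. Under the 5 other scalings 7 to 13 were lower. With the median difference set to 0 under each of 6 scalings, 6 were lower throughout (31.6%), against 17.2% of all genes tested. Pex5, the import receptor, fell (-0.43 ± 0.13, adjusted p = 0.0243), and so did Pex13 (-0.33 ± 0.10), its docking partner, and Pex3 (-0.58 ± 0.11), which inserts membrane proteins. Pex14, the other docking protein, stood at 0.21 ± 0.10 and was not called. Pex13 was called with an adjusted p of 0.0437 and at neither week alone.

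Autophagy, which delivers cell contents to the lysosome, leaned lower with few rises. Of 36 autophagy genes 13 were lower (36.1%, against 23.6% of all genes tested) and 2 higher (5.56%, against 31%). Under the 5 other scalings 12 to 21 were lower. With the median difference set to 0 under each of 6 scalings, 9 were lower throughout (25%), against 17.2% of all genes tested. Atg5 (-0.55 ± 0.08), Atg2a (-0.39 ± 0.09), Wipi2 (-0.28 ± 0.08) and Atg7 (-0.27 ± 0.08), which act in building the autophagosome, fell, as did the starting kinase Ulk1 (-0.35 ± 0.10). The transcription factor of lysosomal genes Tfeb rose (0.90): it read -4.84 to -4.37 on control arrays and -3.92 to -3.55 on CDAHFD arrays. Wipi1 (0.66), a relative of Wipi2, also rose, and the cargo receptor Sqstm1 was not called (0.33 ± 0.17).

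In the degradation pathway of the endoplasmic reticulum 11 of 19 genes were lower (57.9%, against 23.6% of all genes tested) and 1, Edem2 (0.86), was higher. Under the 5 other scalings 8 to 15 were lower. With the median difference set to 0 under each of 6 scalings, 8 were lower throughout (42.1%), against 17.2% of all genes tested. Syvn1, the ubiquitin ligase of the pathway, fell by 1.02 ± 0.14 on the log2 scale, its partner Sel1l by 0.69 ± 0.12 and the extracting ATPase Vcp by 0.62 ± 0.10. The lectin Os9 (-0.35 ± 0.09, adjusted p = 0.0138) and the membrane adaptor Faf2 (-0.29 ± 0.09, adjusted p = 0.0463) were small consistent genes.

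Of 31 coagulation and complement genes, which the liver secretes, 26 were lower and none higher, with a median of -0.66, and 5 were small consistent genes. Thrombin's precursor F2 differed by -0.60 ± 0.08 and C3, the central complement protein, by -0.61 ± 0.11, while F9 (-0.41 ± 0.10), F13b (-0.53 ± 0.12) and C1ra (-0.34 ± 0.09) were called only when pooled. Another C1ra probe read the opposite way (0.35), so that gene has no settled direction. C3 stood at 0.01 with quantile normalization, so its direction rests on the scaling. Of the 23 hepatocyte markers 21 were lower, among them Hnf4a (-0.43 ± 0.08), the factor that maintains hepatocyte identity, and the thyroid hormone carrier Ttr (-0.64 ± 0.14). Alb was not called (-0.13 ± 0.08, adjusted p = 0.414), and it stood at 0.41 with quantile normalization and at 0.22 with cyclic loess, both called higher there. The median of the hepatocyte markers was -0.62 and lay between -0.62 and -0.07 under the 5 other scalings. These markers moved with the mitochondrial, peroxisomal, proteasome and plasma protein lists, and their part in those values was not tested.

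**Figure D5:**
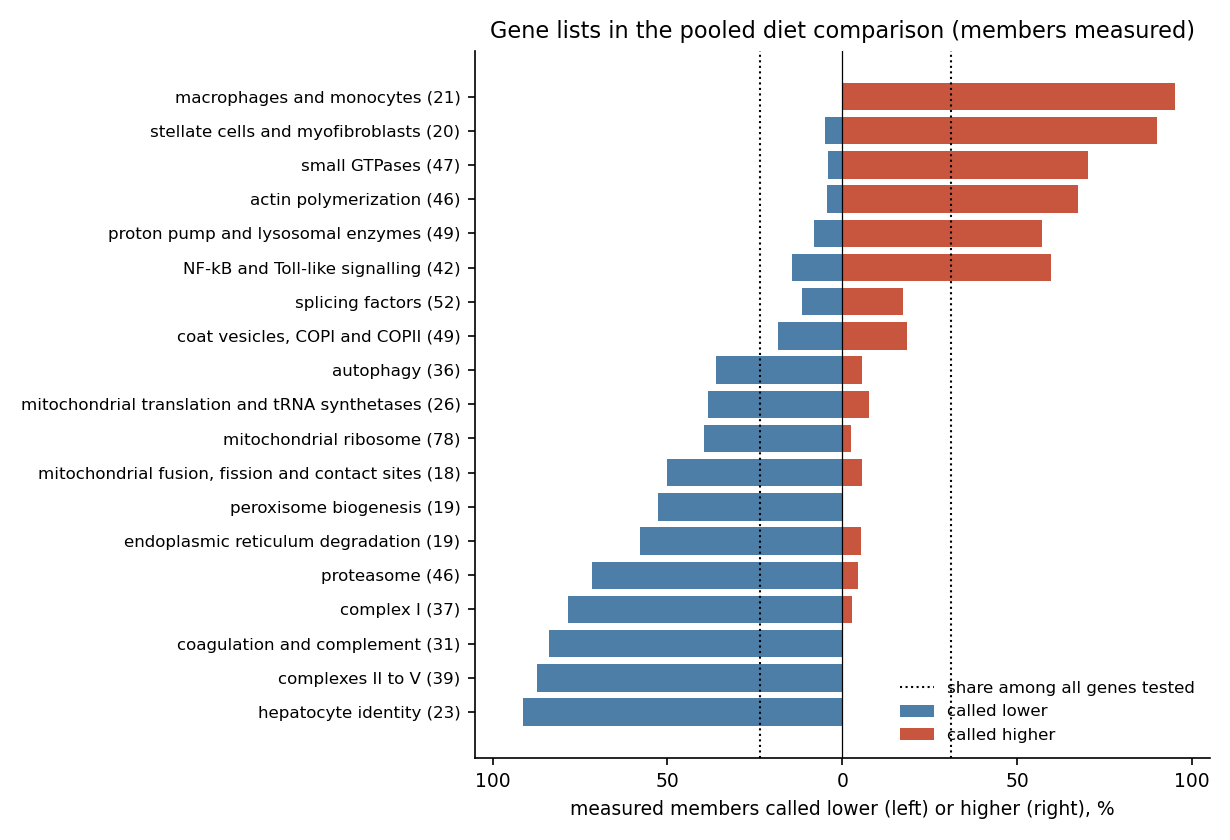
Share of measured members (%, x axis) called lower (blue, left) and higher (red, right) in the pooled comparison for 19 gene lists (y axis, number measured in brackets), with dotted lines at the shares among all genes tested (23.6% lower, 31% higher). Mitochondrial, proteasome and plasma protein lists reach left of the left line, and actin, GTPase, lysosome and signalling lists right of the right line.

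The lysosome list stood on the other side. Of 49 measured members 28 were higher and 4 lower, with a median of 0.32, and 6 of the higher ones were small consistent genes. The proton pump that acidifies the lysosome had 9 of 16 subunits higher and none lower, and of 8 cathepsins, the lysosomal proteases, 6 were higher and none lower. Ctsd, an aspartic cathepsin, read 2.67 to 2.86 on control arrays and 3.84 to 4.25 on CDAHFD arrays (1.24 ± 0.08, adjusted p = 1.4e-06). Ctsb read 3.77 to 3.9 against 4.08 to 4.30 and was called when pooled only (0.29 ± 0.08, adjusted p = 0.00635). Of the same kind were the pump subunit Atp6v0c (0.26 ± 0.07), the cathepsin Ctsz (0.34 ± 0.10) and Gla, whereas the membrane protein Lamp1 (-0.23 ± 0.07) fell slightly and stood at 0.15 with quantile normalization and 0.06 with cyclic loess.

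Macrophages are rich in lysosomes, and the macrophage markers moved with this list: 20 of 21 were higher, with a median of 2.51. Adgre1 (1.53 ± 0.24), Cd68 (3.13 ± 0.11), itself a lysosomal glycoprotein, and Csf1r (1.09 ± 0.13) were among them, and the part of macrophage number in the lysosomal values was not tested. At week 1 the median of the lysosome list was -0.03 and that of the macrophage markers 1.70.

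The CLEAR motif TCACGTGA, known as the site of Tfeb and Tfe3 in lysosomal promoters, was found in 16.7% of 42 promoter windows of this list, against 0.974% of all windows in the table and 1.72% of those of genes tested. The list holds 7 genes with it, of which 4 were higher, a share like that of the whole list (28 of 49). The windows of the 3 with the smallest p are shown for that reason, with the motif in capitals: Ctsd (chr7:142387778-142388077, minus strand), Atp6v0e (chr17:26676146-26676445, plus strand) and Atp6v1a (chr16:44139210-44139509, minus strand), from the same RefSeq table and build.
Ctsd: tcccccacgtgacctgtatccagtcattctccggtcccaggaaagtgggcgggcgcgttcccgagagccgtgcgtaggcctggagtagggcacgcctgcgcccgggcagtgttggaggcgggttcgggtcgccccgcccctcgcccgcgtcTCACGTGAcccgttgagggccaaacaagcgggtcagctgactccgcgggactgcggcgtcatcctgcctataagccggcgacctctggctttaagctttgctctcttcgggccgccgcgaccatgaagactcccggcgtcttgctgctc
Atp6v0e: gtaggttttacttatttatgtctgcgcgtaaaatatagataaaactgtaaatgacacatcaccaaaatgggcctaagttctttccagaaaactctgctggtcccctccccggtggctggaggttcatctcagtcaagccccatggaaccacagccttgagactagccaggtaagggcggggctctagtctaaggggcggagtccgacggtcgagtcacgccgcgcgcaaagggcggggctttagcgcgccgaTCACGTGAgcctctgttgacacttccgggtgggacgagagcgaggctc
Atp6v1a: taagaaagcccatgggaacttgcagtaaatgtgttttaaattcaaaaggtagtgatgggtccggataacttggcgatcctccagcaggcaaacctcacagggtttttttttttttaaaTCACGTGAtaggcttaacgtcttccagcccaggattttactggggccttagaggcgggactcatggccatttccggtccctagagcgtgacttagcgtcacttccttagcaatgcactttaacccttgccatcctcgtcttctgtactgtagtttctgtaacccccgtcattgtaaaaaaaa
The motif begins at -99, 2 and -132 from the start. Atp6v0e, a small subunit in the membrane part of the pump, read 1.75 to 2.05 on control arrays and 2.56 to 2.71 on CDAHFD arrays (0.66 ± 0.08, adjusted p = 8.0e-05). Atp6v1a, the catalytic subunit of the pump, read 0.18 to 0.39 against 0.73 to 1.00 (0.47 ± 0.08, adjusted p = 0.00042). Among small consistent genes the motif stood in 3.47% of windows of the higher and 2.04% of the lower genes.

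The other 10 motifs were searched on both strands in the same way. AP-1 letters, TGACTCA, stood in 2.58% of windows of the lower small consistent genes and 3.81% of those of genes not called. For the NRF2 core, TGACNNNGC, which can overlap AP-1, the shares were 13.5% and 14.6%. For the liver factor HNF4A, searched as CAAAGTCC, they were 1.36% and 1.29%, and for the forkhead motif TGTTTAC 3.12% and 2.47%. The shares for E2F, searched as TTGGCGC, were 2.45% and 4.65%, and those for NRF1, searched as GCGCATGC, 4.21% and 5.81%. The STAT motif TTCNNNGAA gave 6.25% and 7.17%, the C/EBP motif TTGCNNAA 8.70% and 8.24%, the CRE motif TGACGTCA 3.8% and 3.30%, and CCAAT 38.2% and 38.3%.

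The actin cytoskeleton and the small GTPases that steer it were higher over a wide range of sizes. Of 46 actin genes 31 were higher and 2 lower, and of 47 small GTPase and regulator genes 33 were higher and 2 lower. Of the 9 subunits of the Arp2/3 complex, which branches actin filaments, 7 were higher: Arpc2 differed by 0.60 ± 0.08 and Arpc4 by 0.30 ± 0.11, the latter called when pooled only. Brk1 (0.24 ± 0.08) and Cyfip1 (0.18 ± 0.08), which belong to the complex that switches on Arp2/3, and Coro1b (0.34 ± 0.12), which turns branches over, were small consistent genes. Beta-actin, Actb (-0.16 ± 0.09), and the filament-severing Cfl1 (0.11 ± 0.10) were not called. The other probes of Cfl1 read higher and passed (0.26 and 0.62), and Actb stood at 0.45 with quantile normalization and at 0.20 with cyclic loess.

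Among the GTPases Rhoa rose a little (0.22 ± 0.07, adjusted p = 0.0138), while Rac1 (0.07 ± 0.08) and Hras (-0.04 ± 0.09) were not called. Rala (0.34 ± 0.10) and Rap1b (0.26 ± 0.09), which act in secretion and adhesion, Rras2 (0.35 ± 0.12) and the Cdc42 effector Cdc42ep1 (0.33 ± 0.09) were small consistent genes. Rala read -0.01 to 0.24 on control arrays and 0.26 to 0.62 on CDAHFD arrays. Both lists' medians stayed between 0.46 and 0.67 under the 5 other scalings. Markers of macrophages (20 of 21 higher) and stellate cells (18 of 20) moved with the actin and GTPase lists. So did those of dendritic cells (12 of 14) and of T and NK cells (15 of 19). Of the 19 T and NK markers, 9 were above background on both control arrays of week 2 and 19 on both CDAHFD arrays of week 6. Under every scaling 6 of them were higher. Markers of sinusoidal endothelium (4 of 22 higher, 7 lower) and of B and plasma cells (3 of 11 higher, 2 lower) did not rise as a list. The part of these cells in the actin and GTPase values was not tested.

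NF-kB and Toll-like signalling combined large and small rises. Of 42 genes 25 were higher and 6 lower, with 7 of 9 Toll-like receptors higher. Tlr4, the receptor for bacterial lipopolysaccharide, differed by 1.60 ± 0.16, while the adaptor Myd88 (0.24 ± 0.09) and the inhibitors Nfkbia (0.28 ± 0.10) and Nfkbib (0.22 ± 0.09) were called when pooled only. The transcription factor subunits Nfkb1 (0.27 ± 0.12, adjusted p = 0.0562) and Rela (-0.02 ± 0.08) were not called, and Rela stood at 0.24 with quantile normalization and at 0.14 with cyclic loess. Macrophage and stellate cell markers rose with this list, with Col1a1 at 3.76 ± 0.14, Acta2 at 1.97 ± 0.19 and Lrat at 1.23 ± 0.16, and their part in it was not tested.

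In the splicing and coat vesicle lists most genes were not called. Of 52 splicing factors 9 were higher and 6 lower, both shares below those of all genes, although Srsf1 (0.61 ± 0.11) and Hnrnpa1 (0.79 ± 0.09) rose. Sf3b1 (0.01 ± 0.15) was not called, and Snrnp200 (0.25 ± 0.08) and Srsf6 (0.31 ± 0.11) were small consistent genes. Of 49 genes of COPI and COPII vesicles, which carry proteins between the endoplasmic reticulum and the Golgi, 9 were higher and 9 lower. Their small consistent genes pointed both ways, with Copa (0.30 ± 0.10), Copg1 (0.60 ± 0.16) and Trappc4 (0.35 ± 0.11) higher and Sar1b (-0.47 ± 0.16), the GTPase that starts COPII coats, lower, and Sec23a rose as well (0.44 ± 0.10). Under the 5 other scalings between 4 and 16 of these 49 genes were called higher and between 1 and 20 lower, and the list's median ran from -0.07 to 0.10, so it has no settled direction.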

How the data were processed

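Spot intensities (gProcessedSignal, linear) were deposited as background-subtracted, spatially detrended Agilent Feature Extraction output, per the file headers. Version 11.5.1.1 is named there, and version 10.7 in the submitters' processing notes.

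Control spots and flagged outliers were left out, and probe accessions were matched to RefSeq symbols of GRCm38.p6 (28664 probes named, 27017 not). Log2 intensities had each array's 75th percentile subtracted, taken over the 21082 probes above background on all 8 arrays. Genes entered if some probe exceeded background on both replicates of a group, and were read by their brightest probe. The fit was limma 3.58.1 in R 4.3.3 (2-sided, with robust, trended eBayes), with week as a block, checked on simulated data. Where every array of one diet was below background, the fold is a lower bound, set against the lowest signal well above background.

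The mean signal column is not used here, so normexp (offset 50) took median signals. Named genes were the 6 largest calls in each direction, the 15 small consistent genes of smallest adjusted p in each direction called under every scaling, and for each described list its first 3 members and up to 4 small consistent ones; 15 higher genes called under every recentred scaling were added. Some genes this rule named are not reported here. Members and lists were chosen with earlier results of these data known. Alternatives were 5 scalings, filters, probe rule, eBayes settings, array weights, a replicate block, other week terms and leaving out each array. The number of arrays limits the precision.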

Additional observations from a re-analysis of the deposited data

Results flagged for a closer look

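Probes without a match to a gene name were left out of the comparisons above. Of 8117 such probes above background in at least 1 group, 43.7% were called in the pooled comparison, 1482 higher and 2063 lower, against 54.6% of named genes. They were singled out because they carry a difference between the diets outside the genes reported on. With 2 arrays a group, single arrays were not tested as outliers.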

How the results depend on the processing

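The pooled comparison called 7413 genes. It called 11207 with no filter on dim probes, 4553 with only the arrays of week 6, and 2689 where a 2-fold change was also required. Leaving out each array in turn gave 6420 to 7345. The small consistent group held 1248 genes and 690 to 1442 without an array. The count of 690 came without control replicate 2 of week 2, and 851 of the 1248 genes were still called in the same direction there. The change between weeks was called for 0 genes, and for 0 to 8 without an array, 8 of them without CDAHFD replicate 2 of week 6. Under the other alternatives run, counts stayed within 1.5 times, but not the genes: with the percentile over all probes 41 of the 1248 were again in the small consistent group, with cyclic loess 735.

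With the replicate number as a block, 7556 genes were called when pooled, 1230 were in the small consistent group and 0 changed between weeks. Same-numbered arrays deviated together with correlations of -0.09 to 0.23, so the numbers were not taken as pairs.

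Of 145 named genes, 11 to 28 lost their call without an array. Directions turned for C3 (0.01), Actb (0.45), Lamp1 (0.15), Rela (0.24) and Alb (0.41) with quantile normalization, for Actb (0.20), Lamp1 (0.06), Rela (0.14) and Alb (0.22) with cyclic loess, for Ccsap (-0.06) with normexp, and for Smg9 (-0.14) and C1ra (0.00) with the mean of a gene's probes. The causes were not tested. Of 95 list medians under other scalings, 26 moved by more than the spread of replicates and 3 changed sign, all of COPI and COPII vesicles.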
